A study of Homo sapiens with 3 samples.

Results

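The 10 genes described here encode the enzymes of de novo purine synthesis and of its branches to GMP and AMP: PPAT, GART, PFAS, PAICS, ADSL, ATIC, IMPDH1, IMPDH2, GMPS and ADSS. They were chosen by name from the 25247 named genes of the tables, and each was found in 1 row of its own. All 10 exceeded 20 FPKM (fragment counts divided by transcript length and library depth) in the control, so all 10 were among the 11708 genes tested, which needed 1 FPKM in at least 1 library.

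The cells were OCI-AML2 R50, derived from an established human acute myeloid leukaemia (AML) line, and they were grown with 15% serum and 50 µM cytarabine (Ara-C), the nucleoside analogue of AML chemotherapy. Both groups carried this cytarabine, per the labels. The control group was 1 library of cells labelled control, and the treated group was 2 libraries of cells given romidepsin, an inhibitor of class I histone deacetylases, for 18 h. Neither the dose of romidepsin nor the harvest time of the control is stated in those labels. Whether the treated libraries came from separate cultures is not stated either, so the p-values reflect only how far these libraries spread, possibly for technical reasons.

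Purine nucleotides are built on a ribose phosphate, PRPP. A chain of reactions shared between 6 enzymes turns PRPP into IMP, using glutamine, glycine, aspartate and formyl groups carried by folate. IMP is then the fork: IMPDH1 or IMPDH2 followed by GMPS leads to GMP, and ADSS followed by ADSL leads to AMP. Dividing cells, leukaemic blasts included, rely on this route for RNA, DNA and energy carriers, and drugs such as methotrexate and mycophenolic acid act on it or on its folate supply.

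Libraries of this series differed in overall scale, and this bears on every value below. The named genes summed to 613768 FPKM in the control, against 520552 and 517923 FPKM in the treated libraries. The depth estimated from the smallest values of genes with a single transcript was about 18800000, 21000000 and 21500000 fragments. Differences are given on the log2(FPKM + 1) scale, romidepsin minus control, with the values as deposited; the median of all tested genes was -0.05 there and 0.16 when every library was rescaled to an equal sum of named genes (equal-sum scaling), a shift of 0.21. Myeloid identity was present in every library: the 8 myeloid markers summed to 6125 FPKM in the control, against 3808 and 3757 FPKM in the treated libraries. LYZ made up 4258 FPKM of the control sum. As deposited, 5 of the 8 were called lower and 3 higher, against 41.8% and 34.7% of all tested genes. Under equal-sum scaling 4 were called lower and 3 higher, against 26.2% and 48.7% of all tested genes. With quantile normalization 4 were again lower and 3 higher, where 4387 and 3707 of the 11708 tested genes were. Lower as deposited were ELANE by 1.31, SPI1 by 1.01, MPO by 0.77, LYZ by 0.70 and CD33 by 0.18. CD33 was called under neither other scaling. Higher were PTPRC by 0.43, CEBPA by 0.24 and ANPEP by 1.93. ANPEP was at 0.654 FPKM in the control and passed the filter of 1 FPKM only through the treated libraries, which fixed its direction. Without it, 5 of 7 were lower and 2 higher. All 4 erythroid markers and 3 of 5 epithelial markers were listed at 0 and the epithelial sum was at most 0.0764 FPKM. Lymphoid markers summed to 1.06, 3.07 and 3.03 FPKM and fibroblast markers to 0.608, 7.61 and 7.33 FPKM, with COL1A2 and the joint row of COL3A1 at 0. The part of these low signals in the results was not tested.

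After romidepsin 9 of the 10 enzymes fell, and PPAT, the enzyme that commits PRPP to the pathway, was not called. Falls ranged from 0.42 on the log2 scale for IMPDH2 to 1.18 for PFAS, and the median of the 10 differences was -0.66 against -0.05 for all genes tested. By the same rule (limma, Benjamini-Hochberg adjusted p under 0.05 over all tested genes), 76.5% of all genes passed in either direction and 41.8% passed as lower, so a single call says little and the count of 9 lower is read against that 41.8%. No enzyme passed as higher, and none was higher at an unadjusted limma p under 0.05, against 34.7% of all genes called higher. In these bulk libraries, fewer cells of a type and less RNA per cell cannot be told apart. All 10 lay under the control in each treated library, as did 51.4% of all tested genes. Under equal-sum scaling the same 9 enzymes were called lower, against 26.2% of all genes, and PPAT was called higher, against 48.7%. The 9 were also called lower with quantile normalization and among genes with a mean of at least 5 FPKM, where 37.5% and 49.1% of all genes were.

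**Figure D1:**
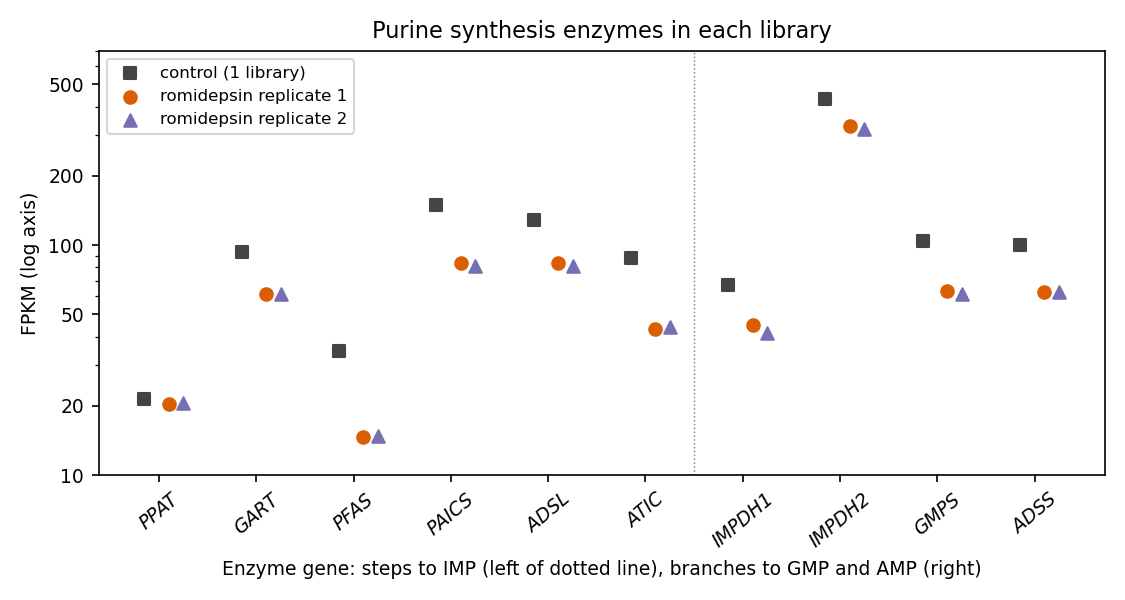
FPKM on a log axis of each purine synthesis enzyme in the control library (squares) and the 2 romidepsin libraries (circles and triangles), with the enzymes leading to IMP left of the dotted line and those of the GMP and AMP branches right of it. The control lies above both romidepsin libraries for each gene, by the least for PPAT (21.4 against 20.3 and 20.7 FPKM), and IMPDH2 is the most abundant in every library.

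Among the enzymes leading to IMP, the largest fall was that of PFAS, which adds an amino group from glutamine to the growing purine ring. PFAS was at 34.8 FPKM in the control, against 14.7 and 14.8 FPKM in the treated libraries. Both treated libraries held 42.1% and 42.7% of the control level, and the difference was -1.18 ± 0.05 (SE; limma adjusted p = 9.71e-07). Of all tested genes, 1.87% had a more negative difference. On the log2(FPKM + 1) scale, PFAS was the only enzyme of the 10 to fall at least 2-fold in each treated library. This rule was met by 3.08% of all tested genes. Under equal-sum scaling no enzyme met it, against 1.47% of all genes.

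ATIC, which carries out the closing formylation and ring closure that yield IMP, came next. It was at 88.3 FPKM in the control, against 43.3 and 44.0 FPKM in the treated libraries, or 49.1% and 49.8% of the control. The difference was -1.0 ± 0.04 (SE; limma adjusted p = 7.95e-07). On FPKM without the added 1, ATIC fell just over 2-fold in each treated library. On the log2(FPKM + 1) scale it lay on the edge of the 2-fold rule, at -1.01 in one library and -0.99 in the other. It met the rule with a pseudocount of 0.1 or with romidepsin replicate 1 alone, which makes the count 2.

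PAICS, which joins carbon dioxide and then aspartate to the ring, was at 150 FPKM in the control, against 83.5 and 81.5 FPKM in the treated libraries. The treated libraries held 55.6% and 54.2% of the control, a difference of -0.86 ± 0.04 (SE; limma adjusted p = 1.16e-06).

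PPAT transfers the first nitrogen, from glutamine, onto PRPP, and is the step that purine nucleotides inhibit by feedback. Its level was 21.4 FPKM in the control, against 20.3 and 20.7 FPKM in the treated libraries, or 94.8% and 96.4% of the control. The libraries of the 2 groups did not overlap, yet the difference of -0.06 had a 95% interval from -0.17 to 0.05 and was not called (limma adjusted p = 0.261). The depth allows about 1480, 1570 and 1640 PPAT fragments, for which counting alone gives a standard error of 0.05 on the log2 scale. This is close to the size of the difference. PPAT sat near the middle of all genes, since 49.1% of tested genes had a more negative difference. Its direction depended on the scaling: it was 0.17 higher under equal-sum scaling (limma adjusted p = 0.0171), close to the median of all genes on that scale of 0.16, and 0.01 higher with quantile normalization (limma adjusted p = 0.901).

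PPAT and PAICS are neighbours transcribed away from each other, and the stretch between their RefSeq starts is printed because the values of this pair parted. The RefSeq table of build GRCh38.p14, which is not the build of the deposited tables, places 136 bases between the PPAT start (minus strand) and the PAICS start used here (plus strand). PAICS has 3 start windows in that table. The stretch, in the PAICS direction, lies at chr4:56435616-56435751:
PPAT-PAICS between starts: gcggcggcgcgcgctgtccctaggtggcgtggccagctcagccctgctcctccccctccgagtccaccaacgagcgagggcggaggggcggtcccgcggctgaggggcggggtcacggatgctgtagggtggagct
Beyond the PAICS end of this stretch, the nearest CACGTG, the E-box letters to which MYC with MAX is known to bind, begins 40 bases after the PAICS start and ends 177 bases before that of PPAT. It is shown in capitals with its flanks, on the plus strand at chr4:56435782-56435801:
PPAT-PAICS E-box: gtatttgctgCACGTGgaaa
The 2 genes thus share 1 such match, while PAICS fell and PPAT was not called. Their ratio does not change when a library is multiplied by 1 factor, as in equal-sum scaling: PAICS was 7.01 times as abundant as PPAT in the control, on the FPKM scale, and 4.11 and 3.94 times after romidepsin. Quantile normalization is not a single factor, and with it PAICS differed by -0.59 and PPAT by 0.01.

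The same letters were looked for in all the RefSeq promoter windows, each running from 250 bases before a start to 50 after it; CACGTG reads the same on both strands. They occurred in 7.26% of 35116 windows and in at least 1 window of 8.77% of 27305 genes. Of the 8 enzymes matched in the table (ADSS under its current symbol ADSS2), 3 had a match: PPAT, PAICS and ATIC. The match of PPAT and PAICS is the same 1, and 1 of the 3 PAICS windows holds it. By window, 3 of 13 held a match. ATIC had 2 matches in its window, beginning 46 bases before and 29 bases after the start. GART, PFAS, IMPDH1, GMPS and ADSS had none in these windows, and ADSL and IMPDH2 were not matched. The 100 bases before the start are printed for ATIC, which holds the match, and for PFAS, the enzyme with the largest fall, which holds none, at chr2:215311959-215312058 and chr17:8249189-8249288, both on the plus strand, with CACGTG in capitals:
ATIC upstream: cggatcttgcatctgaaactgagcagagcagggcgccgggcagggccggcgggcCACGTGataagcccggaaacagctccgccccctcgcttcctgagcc
PFAS upstream: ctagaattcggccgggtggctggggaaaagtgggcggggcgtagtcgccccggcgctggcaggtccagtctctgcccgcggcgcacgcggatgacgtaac
These matches are a description of letters, and no binding was measured. MYC itself was at 362 FPKM in the control, against 119 and 116 FPKM in the treated libraries.

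GART, a single protein that catalyses several early steps including a folate-dependent formylation, was at 93.5 FPKM in the control, against 61.1 and 61.0 FPKM in the treated libraries. The treated libraries were nearly identical, at 65.4% and 65.3% of the control, and the difference was -0.61 ± 0.04 (SE; limma adjusted p = 5.23e-06). ADSL releases fumarate both on the way to IMP and on the way to AMP. It was at 129 FPKM in the control, against 83.5 and 81.4 FPKM in the treated libraries, a difference of -0.64 ± 0.04 (SE; limma adjusted p = 4.40e-06). Across the 6 enzymes leading to IMP, the median difference was -0.75, and -0.86 without PPAT.

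The 4 genes of the branches were all called lower, against 41.8% of all tested genes. Their differences lay between -0.74 and -0.42, with a median of -0.65 against -0.05 for all tested genes. Under equal-sum scaling, where 26.2% of all genes were called lower, GMPS differed by -0.50, ADSS by -0.44, IMPDH1 by -0.38 and IMPDH2 by -0.18. GMPS, which aminates XMP to GMP, was at 104 FPKM in the control, against 63.1 and 61.3 FPKM in the treated libraries (-0.74 ± 0.04, SE; limma adjusted p = 2.79e-06). ADSS, which starts the AMP branch by joining aspartate to IMP, was at 100.4 FPKM in the control, against 62.3 and 62.7 FPKM in the treated libraries (-0.67 ± 0.04, SE; limma adjusted p = 3.16e-06). The ratio of GMPS to ADSS was 1.04 in the control and 1.01 and 0.976 after romidepsin.

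IMPDH1 and IMPDH2 are isozymes that oxidise IMP to XMP, the rate-limiting reaction of GMP synthesis and the target of mycophenolic acid. IMPDH2 was the most abundant of the 10 genes in each library, at 432 FPKM in the control, against 329 and 318 FPKM in the treated libraries. Its fall of 0.42 ± 0.03 (SE; limma adjusted p = 2.58e-05) was the smallest of the 9. It was 0.18 under equal-sum scaling and 0.12 with quantile normalization, both still called, and as deposited 23.9% of all tested genes had a more negative difference. IMPDH1 was at 66.9 FPKM in the control, against 45.1 and 41.4 FPKM in the treated libraries, a fall of 0.62 ± 0.05 (SE; limma adjusted p = 3.63e-05). The romidepsin libraries lay furthest apart for IMPDH1 among the 10 genes, by 0.12 on the log2 scale, and closest for GART.

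IMPDH2 made up 86.6% of the summed IMPDH1 and IMPDH2 FPKM in the control and 87.9% and 88.5% after romidepsin, so its share was higher in both treated libraries. With 1 control against 2 libraries, no permutation test can give a p under 0.333, and this share was not tested. IMPDH2 also accounted for 35.4% of the summed FPKM of the 10 enzymes in the control and for 40.8% and 40.5% after romidepsin.

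**Figure D2:**
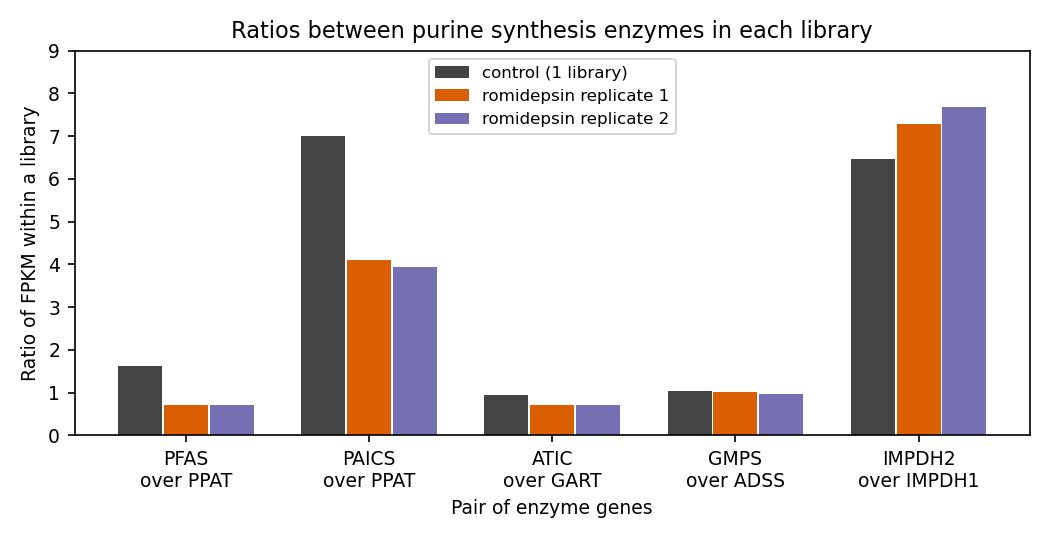
Ratios of FPKM between 5 pairs of purine synthesis enzymes, 1 bar per library on an axis from 0; such ratios do not change when a library is multiplied by 1 factor, though quantile normalization can move them. PFAS over PPAT goes from 1.62 in the control to 0.721 and 0.718 after romidepsin, whereas GMPS over ADSS stays between 0.976 and 1.04 and IMPDH2 over IMPDH1 is higher after romidepsin.

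The members' sum is a sum of RNA levels, in which the most abundant gene, IMPDH2, weighs most. The 10 genes summed to 1221 FPKM in the control, against 806 and 787 FPKM in the treated libraries, and their share of the FPKM of all named genes went from 0.199% to 0.155% and 0.152%. The 6 enzymes leading to IMP went from 517 to 306 and 303 FPKM, and the 4 branch enzymes from 704 to 500 and 484 FPKM.

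Ordered by difference, the sequence ran PFAS, ATIC, PAICS, GMPS, ADSS, ADSL, IMPDH1, GART, IMPDH2 and PPAT. The values of the romidepsin libraries overlapped between ADSL and IMPDH1 and between IMPDH1 and GART, so these neighbours did not differ beyond their spread. For the other neighbours both libraries kept the order, by 0.04 (ADSS and ADSL) to 0.35 (IMPDH2 and PPAT) on the log2 scale. The spread here is that of the romidepsin pair alone, since the control is 1 library and was assumed to vary like the pair. Counting alone gives the ADSS difference a standard error of 0.03, close to the gap of 0.04 to ADSL. With quantile normalization IMPDH1 (-0.43) came between ADSS (-0.45) and ADSL (-0.40). Reads of PAICS, IMPDH1, PPAT and GMPS can also be shared with processed copies: GENCODE v29 names 7, 7, 2 and 1 pseudogenes of these genes, none of which has a row in the tables, and how such reads were assigned is not stated in the labels.

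**Figure D3:**
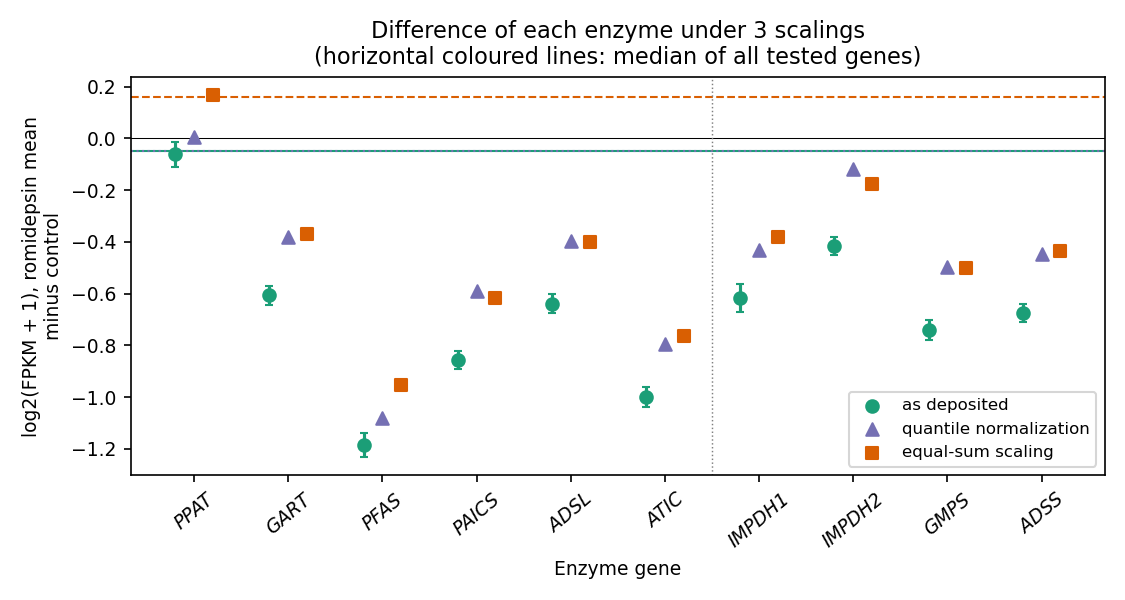
Difference of log2(FPKM + 1), romidepsin mean minus control, for each enzyme under 3 scalings, with the limma standard error drawn for the values as deposited; the horizontal lines mark the median of all 11708 tested genes under each scaling, which coincide at -0.05 as deposited and with quantile normalization. The 9 called enzymes lie below their line under each scaling, and PPAT lies within 0.06 of it.

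The genes around the pathway differed between lists in how many were called lower or higher. Their counts are read against all tested genes, of which 41.8% were called lower and 34.7% higher as deposited, and 26.2% and 48.7% under equal-sum scaling. With quantile normalization, 4387 of the 11708 were called lower and 3707 higher. All 5 tested genes of de novo pyrimidine synthesis fell, also under both other scalings, with a median of -1.0, against 41.8% of all genes called lower as deposited. CAD, which carries the first pyrimidine reactions, was at 31.2 FPKM in the control, against 11.9 and 11.7 FPKM in the treated libraries (-1.33). DHODH, the mitochondrial step, fell by 1.06 and CTPS1, which makes CTP, by 1.0. Of the 3 subunits of ribonucleotide reductase, which turns ribonucleotides into deoxyribonucleotides, RRM2 rose by 0.32 and RRM2B by 0.25. RRM1 fell by 0.32 as deposited, which was not called under equal-sum scaling (limma adjusted p = 0.0942) or with quantile normalization (limma adjusted p = 0.0624).

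Among 13 tested genes that supply formyl folate, 9 fell and 3 rose, with a median of -0.44; under equal-sum scaling 8 were lower and 4 higher, with a median of -0.20. The share called lower was above the 41.8% and 26.2% of all genes under the same scalings. SLC19A1, the reduced folate carrier through which methotrexate also enters cells, was at 37.5 FPKM in the control, against 12.6 and 11.3 FPKM in the treated libraries (-1.58). MTHFD1L, which makes formate in mitochondria, fell by 1.44, and ALDH1L2, which oxidises formyl folate there, fell by 0.73. Of PRPP supply, 3 of 4 tested genes fell and 1 rose, against 1 and 1 with either other scaling. As deposited, 41.8% of all genes were called lower and 34.7% higher. Under equal-sum scaling these shares were 26.2% and 48.7%, and with quantile normalization 4387 and 3707 of 11708 genes were called. PRPS1, a PRPP synthetase, fell by 0.61 and PRPSAP1, a synthetase-associated protein, rose by 0.34. PRPS2 was 0.16 lower as deposited but 0.07 higher and not called under equal-sum scaling (limma adjusted p = 0.134).

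Purine salvage recycles bases and nucleosides and so bypasses the route described above. Of its 7 genes, 4 were called lower and 1 higher as deposited, but 2 lower and 4 higher under equal-sum scaling and 3 lower and 4 higher with quantile normalization. All genes, too, went from more called lower (41.8%) than higher (34.7%) to the reverse (26.2% and 48.7%) under equal-sum scaling. With quantile normalization all genes did not turn: of 11708 tested, 4387 were called lower and 3707 higher. APRT, which salvages adenine, was at 304 FPKM in the control, against 163 and 161 FPKM in the treated libraries (-0.91). HPRT1, which salvages hypoxanthine and guanine, fell by 0.42. ADK, adenosine kinase, rose by 0.21, and by 0.45 under equal-sum scaling and 0.41 with quantile normalization. MTAP, which frees adenine from methylthioadenosine, was 0.35 lower, which was not called under equal-sum scaling (limma adjusted p = 0.0632).

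Of the 11 tested interconversion and breakdown genes, 7 rose and 2 fell, but 2 of the 7 had their direction fixed by the filter. Without those 2, 5 of 9 rose and 2 fell, against 34.7% and 41.8% of all genes. Under equal-sum scaling 7 of the 9 rose and 2 fell, against 48.7% and 26.2%. With quantile normalization 4 rose and 2 fell, where 3707 and 4387 of 11708 genes did. These values for all genes still include genes that passed the filter only through the treated libraries. GMPR, which converts GMP back to IMP, was at 0.816 FPKM in the control, against 11.2 and 12.0 FPKM in the treated libraries; it and ADSSL1, the muscle paralogue of ADSS at 0.553, 1.45 and 1.38 FPKM, passed the filter only through the treated libraries, which fixed their direction. With quantile normalization ADSSL1 was not called (limma adjusted p = 0.291). CECR1, a secreted adenosine deaminase, rose from 14.3 to 32.7 and 32.6 FPKM (1.14). NT5C, a nucleotidase, fell by 1.03, and ITPA, which removes deaminated purine nucleotides, by 1.01.

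Nucleotide kinases, which raise GMP and AMP to their triphosphates, had 7 of 12 tested rows lower and 3 higher, against 41.8% and 34.7% of all genes. Their median was -0.44 as deposited, -0.20 under equal-sum scaling and -0.25 with quantile normalization. NME4 fell by 1.29, the joint row of AK6 and TAF9 by 0.87, and the joint row of NME1 and NME2 by 0.80, from 1290 FPKM to 745 and 740 FPKM. Of 8 genes that supply serine, glutamine or aspartate, 4 were called lower and 3 higher as deposited (median -0.03), against 2 and 5 under equal-sum scaling and 2 and 3 with quantile normalization. The counts as deposited are near the 41.8% and 34.7% of all genes. All genes were at 26.2% and 48.7% under equal-sum scaling. With quantile normalization 4387 and 3707 of 11708 were called lower and higher. PSAT1, of serine synthesis, fell by 0.61, and SLC1A5, a glutamine transporter, fell by 0.46. Besides MYC (-1.61), ATF4 and E2F1 each fell by 0.44, and MAX, the partner of MYC, rose by 0.25.

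**Figure D4:**
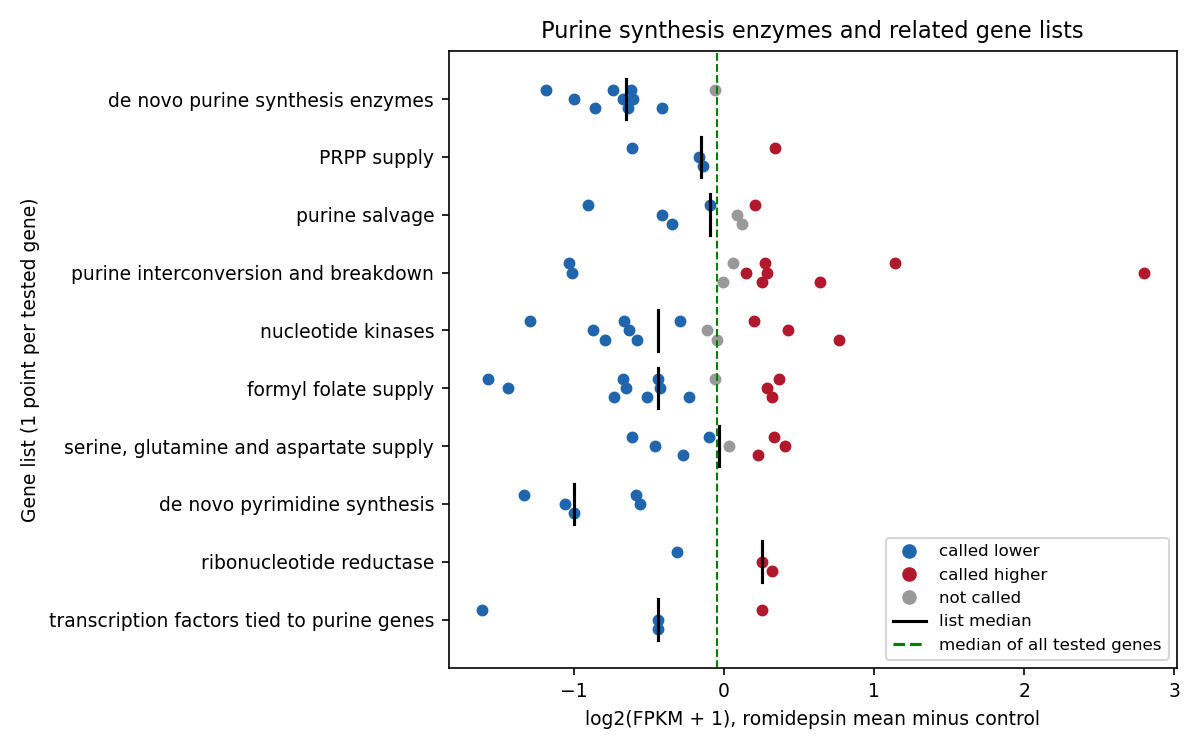
Difference of log2(FPKM + 1), romidepsin mean minus control, of every tested gene in the purine synthesis list and 9 related lists, coloured by the limma call; black bars are list medians (none is drawn for interconversion and breakdown, where the filter fixed the direction of 2 genes) and the dashed line is the median of all tested genes. Purine and pyrimidine synthesis hold no gene called higher, with medians of -0.66 and -1.0.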

How the data were processed

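The deposited values are FPKM per gene and library, per the file headers, and the submitters' processing notes list TopHat, Cufflinks, Cuffdiff and the build hg19. No version, setting or gene annotation is stated there. The 1770 rows with no gene name (21.1% to 22.3% of summed FPKM) and 27 rows named by a number were left out, and rows of a symbol were summed. Genes with at least 1 FPKM in 1 library were compared on log2(FPKM + 1) with limma 3.58.1 in R 4.3.3 (lmFit, eBayes with trend, Benjamini-Hochberg adjustment). The fit had 1 residual degree of freedom and 6.06 prior degrees of freedom. Such a scale understates changes of low genes, and the script was tested on simulated data. Depth was estimated from the smallest values of genes with a single GENCODE v29 transcript, each taken as a single fragment. Only values in a range set beforehand were used (59, 80 and 66 genes in the 3 libraries), which bounds the estimate. Fragment numbers are therefore approximate, and intervals from them cover counting error only. The members and lists were chosen with earlier results of these data known. All 10 members are named, with MYC, the 8 myeloid markers and up to 3 genes per related list, those of the largest difference. Some others are named where a scaling changed their call, where they complete or moved against a small list, or where the filter fixed their direction. These were chosen after their values were seen, and not all genes whose call a scaling changed are named. The count of interconversion and breakdown genes without those whose direction the filter fixed was added after seeing the data. A gene that this rule would name is not reported here. A comparison of protein sequences was planned and not run. Python 3.11.15, pandas 2.3.3 and matplotlib 3.10.9 were used for tables and plots.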

Additional observations from a re-analysis of the deposited data

How the results depend on the processing

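The same 9 enzymes were called lower in each of the 7 alternative fits (pseudocount 0.1, no filter, a mean of at least 5 FPKM, equal-sum scaling, quantile normalization, no trend, only symbols with 1 row); the largest adjusted p among them was 0.0297, for IMPDH2 with quantile normalization. PPAT turned to 0.17 under equal-sum scaling, which made 1 enzyme called higher, and to 0.0064 with quantile normalization. The median of the 10 enzymes was -0.42 under equal-sum scaling and -0.44 with quantile normalization, and -0.67 to -0.65 leaving out 1 romidepsin library. The number of enzymes at least 2-fold lower was 2 with a pseudocount of 0.1, 0 under equal-sum scaling, and 1 to 2 leaving out 1 romidepsin library, where no residual degrees of freedom remain and no test was possible. The count of 9 is read against all tested genes called lower, 4896 as deposited. In the 7 alternative fits these numbered from 3069 (equal-sum scaling) to 4892 (pseudocount 0.1). All fits used the same 3 libraries. The list median turned sign under equal-sum scaling for PRPP supply (0.083), purine salvage (0.14) and serine, glutamine and aspartate supply (0.19), and with quantile normalization for the last 2 (0.15 and 0.052). Why the scalings differ was not tested. The control is 1 library, so a difference between cultures and that of romidepsin cannot be told apart. No paired analysis was possible because the control carries no replicate number.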
